A study of Mus musculus with 6 samples.

Results

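The 10 genes described here are used as markers of smooth muscle and pericytes. There were 6 genes of the smooth muscle contractile apparatus (Acta2, Myh11, Tagln, Cnn1, Actg2 and Mylk) and 4 genes of pericytes (Abcc9, Pdgfrb, Rgs5 and Cspg4). Some, such as Mylk and Cspg4, are expressed by other cells too. All 10 were taken by gene symbol from the 19938 genes measured on the arrays. Each was represented by 1 probe set that carried no other symbol. The samples were organs of Corti, the sensory strip of the cochlea, from mice at postnatal day 15 on a mixed C57BL/6J-129/Sv background. Pjvk-/- mice (knockout), which lack a working copy of the gene for pejvakin, were compared with Pjvk+/+ mice (wild-type), with 3 samples and 3 arrays of each genotype. No treatment is named in the labels, and they do not say whether a sample was 1 animal or a pool. The p-values therefore cover only the spread between samples, part of which can be technical.

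Smooth muscle cells wrap arteries and arterioles, and pericytes sit on capillaries, where both regulate vessel diameter. In smooth muscle, calcium-bound calmodulin activates myosin light chain kinase, which phosphorylates the myosin light chain and lets smooth muscle myosin pull on actin filaments. Pericytes are drawn to growing vessels by platelet-derived growth factor B from the endothelium, and in the cochlea they line the capillaries of the stria vascularis and spiral ligament as well as the vessel beneath the basilar membrane. The comparison asks whether transcripts of these mural cells differ in the hearing organ when pejvakin is missing. The tissue was measured in bulk, so fewer cells of a type and less RNA per cell cannot be told apart.

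No member passed the test across all genes in limma, a linear model with a shared estimate of spread (adjusted p under 0.05; 0 of 10 members, against 0.0351% of all genes). At an unadjusted p under 0.05 there were 4 of 10 members, against 12.4% of all genes. By direction, 3 of 10 members were lower in the knockout, against 6.66% of all genes, and 1 of 10 was higher, against 5.74%. Acta2 and Myh11, the actin and the myosin heavy chain of smooth muscle, read lowest in the knockout relative to the wild-type, 1.3-fold and 1.24-fold lower. Mylk, the kinase that activates that myosin, lay in the other direction, 1.17-fold higher in the knockout. All 4 pericyte genes had lower means in the knockout, by 1.04-fold to 1.16-fold.

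The genes of the contractile apparatus are classic targets of serum response factor, which binds the CArG box, a pair of C bases and a pair of G bases around a core of 6 A or T bases. The stretches just before the gene start are shown for Acta2, which had the largest difference among the members, for its partner Myl9, which lay in the same direction, and for Mylk, which lay in the opposite one. They come from RefSeq on GRCm38.p6, run 5′ to 3′ on the gene's strand and end at the base before the start; capitals mark CArG boxes with at most 1 core base that is G or C. The Acta2 stretch is chr19:34255374-34255493 on the minus strand, the Mylk stretch chr16:34784830-34784949 on the plus strand and the Myl9 stretch chr2:156775264-156775463 on the plus strand.
Acta2: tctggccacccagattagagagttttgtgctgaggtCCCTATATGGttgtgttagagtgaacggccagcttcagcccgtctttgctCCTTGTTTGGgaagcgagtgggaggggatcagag
Mylk: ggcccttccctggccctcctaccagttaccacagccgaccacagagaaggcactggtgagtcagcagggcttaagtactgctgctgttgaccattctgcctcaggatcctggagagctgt
Myl9: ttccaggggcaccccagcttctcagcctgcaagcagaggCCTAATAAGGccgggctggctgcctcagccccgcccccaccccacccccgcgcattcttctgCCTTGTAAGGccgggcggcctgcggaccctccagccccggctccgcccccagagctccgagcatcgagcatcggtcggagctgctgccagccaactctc

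Acta2 held 2 such boxes, beginning 84 and 34 bases before the start, each with 1 exception in the core. Myl9 held 2 as well, beginning 161 and 99 bases before the start, the first of them exact. Promoter entries of 300 bases, 250 before and 50 after the start, were found for 6 of the 10 members. None was found for Myh11, Tagln, Actg2 and Pdgfrb, so boxes were not looked for in these genes. Cnn1, Mylk, Abcc9, Rgs5 and Cspg4 had no such box in that window. Of these, Abcc9, Rgs5 and Cspg4 had lower means in the knockout, and Cnn1 and Mylk had higher ones. A box with at most 1 exception, which reads as a box on both strands, occurred in 9.98% of all 32851 promoter entries, 2 or more in 0.822%, and an exact box in 1.63%. The matches describe letters in these windows and do not show binding in this tissue. Acta2, Myl9 and Mylk were picked for display after their values had been seen. Mylk yields several products, and which of them starts at the window shown was not assessed. Whether boxes go with the direction of a difference was not tested.

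Acta2 encodes smooth muscle alpha-actin, the thin filament protein of smooth muscle cells and of contractile pericytes. Its signal on the log2 scale was 8.59, 8.63 and 8.72 in wild-type mice and 8.37, 8.25 and 8.17 in knockout mice. Every knockout array was below every wild-type array, and the gap between the groups, 0.22, exceeded the range within each group, 0.20 for the knockout and 0.13 for the wild-type. The means were 8.26 ± 0.10 and 8.65 ± 0.07 (SD, n = 3 each), a log2 difference of -0.38 with a standard error (SE) of 0.07 that missed the threshold (adjusted p = 0.146, limma with Benjamini-Hochberg adjustment). Of all 19938 genes, 0.356% had a lower difference than Acta2. The call of Acta2 depended on the fit. It passed when the dimmer part of the genes, below the median level, was left out (adjusted p = 0.0375) and with an intensity trend and robust prior (adjusted p = 0.0152), and over all alternatives its adjusted p ran from 0.0152 to 0.91.

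Myh11 encodes the smooth muscle myosin heavy chain, the most restrictive marker of mature smooth muscle among the members. Its log2 signal was 7.50, 7.37 and 7.41 in wild-type arrays against 7.25, 7.09 and 7.01 in knockout arrays. The groups did not overlap, but the gap of 0.12 was smaller than the range of 0.24 within the knockout. The log2 difference was -0.31 (SE 0.07, adjusted p = 0.209 in limma), with a 95% interval from -0.48 to -0.14 before any adjustment for the number of genes.

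Tagln encodes transgelin (SM22-alpha), an actin-binding protein that accompanies Acta2 in smooth muscle. Knockout arrays read 7.55, 7.29 and 7.18, and wild-type arrays 7.37, 7.55 and 7.56. Knockout replicate 1 was as high as the upper wild-type arrays and wild-type replicate 1 lay inside the knockout range, so the groups overlapped. The log2 difference of -0.15 (SE 0.10) had an interval from -0.38 to 0.07, and it was -0.26 without knockout replicate 1 and -0.07 without knockout replicate 3. A difference of the size seen for Acta2 thus lies at the edge of what these arrays leave possible for Tagln.

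Cnn1 and Actg2 were the dimmest members, at percentiles 25.6 and 23.8 of all genes by mean signal. Probes differ in how strongly they bind, so these percentiles place a signal on the array and are not transcript amounts. Cnn1, which encodes the basic calponin that restrains actomyosin in smooth muscle, read 5.68, 5.76 and 5.90 for the knockout against 5.61, 5.97 and 5.43 for the wild-type. Actg2, the gamma-actin of visceral smooth muscle, read 5.64, 5.64 and 5.60 for the knockout against 5.52, 5.84 and 5.47 for the wild-type. For both genes the wild-type arrays spanned the knockout arrays, and wild-type replicate 2 stood above the other wild-type arrays. The log2 differences were 0.11 (interval -0.18 to 0.40) for Cnn1 and 0.02 (interval -0.20 to 0.23) for Actg2, and neither direction held throughout. Actg2 was at -0.04 with quantile normalization and with cyclic loess and at -0.05 and -0.03 without wild-type replicates 3 and 1, and Cnn1 was at -0.01 without wild-type replicate 3.

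Mylk encodes myosin light chain kinase, which starts contraction by phosphorylating the regulatory light chain. The gene also yields a long non-muscle kinase found in endothelium and many other cells, and telokin, a short product of smooth muscle, and which of these the probe set reads is not known here. Wild-type arrays gave log2 signals of 7.83, 8.03 and 7.89, and knockout arrays 8.18, 8.05 and 8.20. Each knockout value lay above each wild-type value, but only by 0.02, because knockout replicate 2 and wild-type replicate 2 nearly met. The log2 difference was 0.23 (SE 0.07, adjusted p = 0.306 in limma, interval 0.06 to 0.39). It stayed positive in all 16 alternatives, between 0.17 and 0.28.

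**Figure D1:**
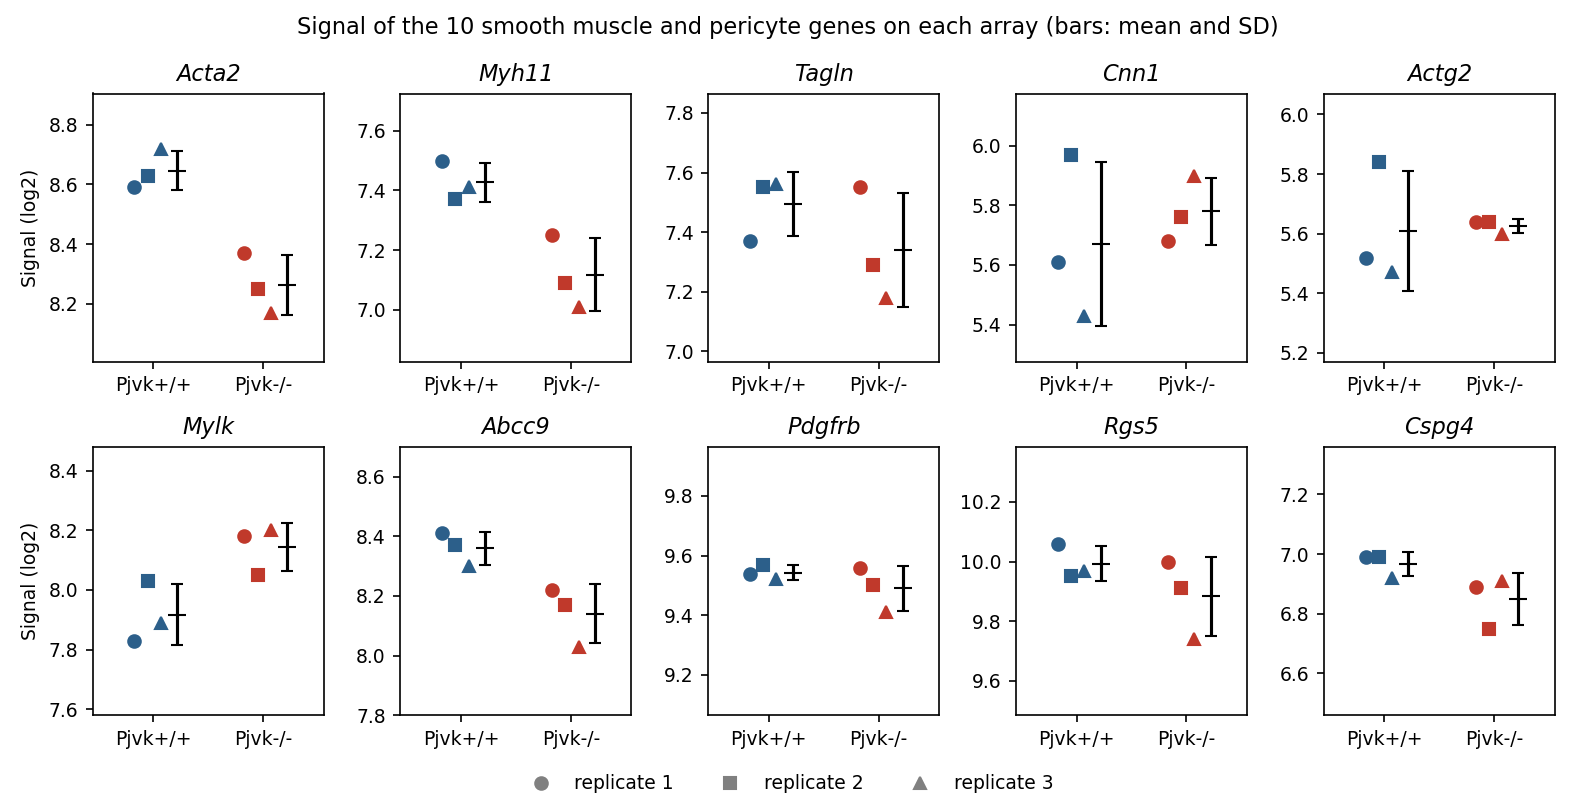
Log2 signal of each of the 10 genes on the 6 arrays, with wild-type (Pjvk+/+) in blue, knockout (Pjvk-/-) in red, marker shapes for the replicate number, and black bars for the mean and SD of 3 arrays; each vertical axis spans the same log2 range around the gene's own mean. Acta2, Myh11 and Abcc9 stand lower in all 3 knockout arrays, Mylk stands higher, and Cnn1 and Actg2 have wide wild-type groups (SD 0.27 and 0.20).

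Among the pericyte genes, Abcc9 had the largest difference. It encodes the SUR2 subunit, which with the channel pore Kcnj8 forms the ATP-sensitive potassium channel of pericytes and vascular smooth muscle. Wild-type arrays gave log2 signals of 8.41, 8.37 and 8.30, and knockout arrays 8.22, 8.17 and 8.03. The groups were separate, with a gap of 0.08 against a range of 0.19 within the knockout. The log2 difference was -0.22 (SE 0.07, adjusted p = 0.292 in limma, interval -0.37 to -0.07). Kcnj8 itself differed by 0.00, a value that was looked up because it is the partner of Abcc9 and after the other values had been seen.

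Cspg4 encodes the NG2 proteoglycan on the surface of pericytes, which oligodendrocyte precursors and other cells carry too. Knockout arrays read 6.89, 6.75 and 6.91, and wild-type arrays 6.99, 6.99 and 6.92. The groups were separate by only 0.01, and the log2 difference was -0.12 (SE 0.06, adjusted p = 0.466 in limma, interval -0.26 to 0.03). The separation of Cspg4 therefore rested on a gap about as small as the rounding of the deposited values.

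Rgs5 and Pdgfrb were the brightest members, at percentiles 95.8 and 92.5 of all genes. Rgs5, a brake on G protein signalling and a standard pericyte marker, read 10, 9.91 and 9.74 for the knockout against 10.06, 9.95 and 9.97 for the wild-type. Pdgfrb, the receptor through which pericytes are recruited, read 9.56, 9.5 and 9.41 for the knockout against 9.54, 9.57 and 9.52 for the wild-type. In both genes knockout replicate 3 was the lowest of the 6 arrays and knockout replicate 1 lay among the wild-type values. The log2 difference was -0.11 for Rgs5 (interval -0.28 to 0.06) and -0.05 for Pdgfrb (interval -0.19 to 0.08). The Pdgfrb interval leaves out the Abcc9 estimate of -0.22 but overlaps the Abcc9 interval, -0.37 to -0.07. A difference between the 2 genes was not tested.

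**Figure D2:**
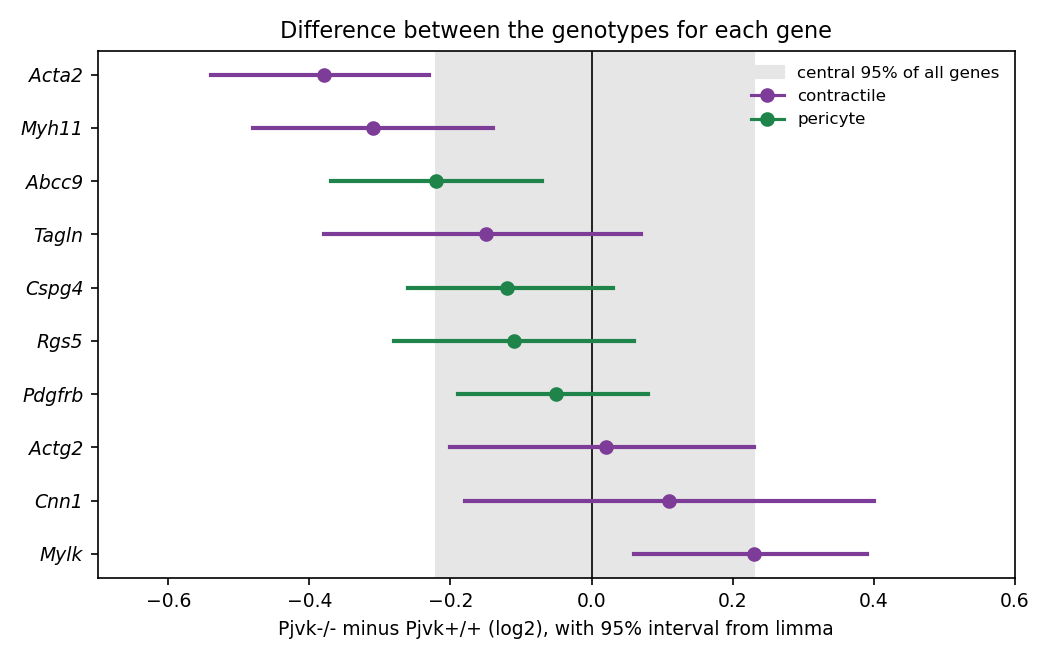
Knockout minus wild-type difference on the log2 scale for each of the 10 genes (dots) with its 95% interval from limma, not adjusted for the number of genes (lines; purple for contractile and green for pericyte genes); the grey band holds the central 95% of the differences of all genes, -0.22 to 0.23. The intervals of Acta2, Myh11, Abcc9 and Mylk do not reach 0, the last of them on the higher side.

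As a group, 7 of the 10 members had a lower mean in the knockout and 3 a higher one, with a median log2 difference of -0.11. Over all genes 53.8% were lower and the median was -0.01. The contractile genes were evenly divided, 3 lower and 3 higher with a median of -0.07, and the 4 pericyte genes had a median of -0.11. The groups did not overlap for 5 of 10 members, 4 lower and 1 higher, against 17.8% of all genes, 11.3% lower and 6.59% higher. With 3 arrays against 3, each of these 5 had p = 0.1 in an exact permutation test (two-sided), the smallest value it can give. Without knockout replicate 1 the count was 8, where 28.9% of all genes had separate groups with 2 arrays against 3. The median was -0.06 without knockout replicate 3.

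Many members ranked the knockout arrays alike. Knockout replicate 3 was the lowest knockout array for 7 of 10 members, against 31.6% of all genes. Knockout replicate 1 was the highest knockout array for 6 members, against 34.1% of all genes. These 6 were Acta2, Myh11, Tagln, Abcc9, Pdgfrb and Rgs5, whereas Mylk, Cnn1 and Cspg4 were highest in knockout replicate 3. As a mean deviation from each gene's 6-array mean, the pericyte genes stood at 0.01, -0.07 and -0.13 on the knockout arrays and at 0.10, 0.07 and 0.02 on the wild-type arrays. The contractile genes stood at 0.03, -0.07 and -0.08 against -0.02, 0.15 and -0.01, so their groups overlapped.

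Other parts of the contractile apparatus differed from gene to gene. Of 18 measured partners in the filaments and their anchors, 14 had lower and 4 higher means in the knockout, with a median of -0.04, and none passed the adjusted test. Myl9, the regulatory light chain that Mylk phosphorylates, read 8.36 ± 0.13 in knockout and 8.66 ± 0.06 in wild-type arrays (SD, n = 3 each), a log2 difference of -0.30. Pln, which encodes the calcium pump inhibitor phospholamban of cardiac, slow skeletal and smooth muscle, had the largest difference of this list at -0.44 (SE 0.10, adjusted p = 0.192 in limma). Actn1, an actin cross-linker of many cell types, differed by -0.24, and these 3 genes had separate groups. In the whole list 4 of 18 genes had separate groups, all on the lower side, against 11.3% of all genes on that side. Csrp1, a LIM protein of smooth muscle, differed by -0.16 with overlapping groups.

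The enzymes that set the phosphorylation of myosin showed small differences. Of 9 measured genes 6 were lower and 3 higher, with a median of -0.01. Ppp1r14a, which encodes the myosin phosphatase inhibitor CPI-17, differed by 0.16 (SE 0.06, adjusted p = 0.357 in limma), in the direction of Mylk, with separate groups. Only this 1 of the 9 genes had separate groups, against 17.8% of all genes. Prkg1, the cGMP-dependent kinase that relaxes smooth muscle, differed by -0.15 and Ppp1r12a, the targeting subunit of myosin phosphatase, by 0.05, both with overlapping groups.

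Regulators of the smooth muscle programme lay in both directions. Of 13 genes of the serum response factor, transforming growth factor beta and Notch pathways, 8 were lower and 5 higher, with a median of -0.03 and none past the adjusted test. The Notch ligand gene Jag1 differed by -0.18 (SE 0.05, adjusted p = 0.292 in limma) with separate groups. Jag1 was the only 1 of the 13 genes with separate groups, against 17.8% of all genes. Myocd, the coactivator that drives smooth muscle genes, differed by 0.16, the transcription factor gene Gata6 by 0.19 and Klf4, a repressor of the contractile state, by 0.11, all with overlapping groups.

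Channels and receptors of vascular tone were divided, with 5 of 13 measured genes lower and 8 higher and a median of 0.02. Gucy1b1, the beta subunit of the nitric oxide receptor guanylyl cyclase, read 6.20 ± 0.10 in knockout and 6.47 ± 0.03 in wild-type arrays, and Kcnma1, the large-conductance calcium-activated potassium channel of smooth muscle and hair cells, 8.55 ± 0.09 and 8.74 ± 0.04 (SD, n = 3 each). Both had separate groups and neither passed (adjusted p = 0.214 and 0.336 in limma). They were the only 2 of the 13 genes with separate groups, against 17.8% of all genes. Npr3 and Ednrb, receptors for natriuretic peptides and endothelin, differed by 0.20 and 0.19 with overlapping groups.

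A further 18 genes of pericytes and their surroundings gave 9 lower and 9 higher means, with a median of 0.00. Rgs4, a relative of Rgs5, differed by -0.23 (SE 0.08, adjusted p = 0.317 in limma) with separate groups. Separate groups occurred in only this 1 of the 18 genes, against 17.8% of all genes. Angpt1, the pericyte ligand of the endothelial Tie2 receptor, differed by 0.28, Vtn, which encodes vitronectin, by 0.17 and Anpep, an aminopeptidase of brain pericytes, by -0.10, all with overlapping groups.

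Markers of other cells in the dissected tissue are given beside these results. Endothelial genes were lower in 17 of 19 measured members, with a median of -0.15, separate groups in 7, all on the lower side (against 11.3% of all genes on that side), and a mean level of 7.84 to 7.90 on knockout arrays against 7.98 to 8.0 on wild-type arrays. Ptprb, Flt1 and Eng, receptors of the endothelium, each differed by -0.22 and the glucose transporter gene Slc2a1 by -0.25, with none past the adjusted test. Skeletal muscle genes lay in the other direction, with 15 of 21 higher, a median of 0.12 and mean levels of 6.28 to 6.49 on knockout arrays against 6.32 to 6.40 on wild-type arrays. The groups were separate for 10 of these 21 genes, 7 higher and 3 lower. Over all genes 17.8% had separate groups, 6.59% higher and 11.3% lower. The lower ones with separate groups were Ttn, Cox8b and Neb. Ttn, the gene of titin, passed the adjusted test (-0.95, adjusted p = 0.00206 in limma). Cox8b and Neb did not (-0.74 and -0.47, adjusted p = 0.0697 and 0.0534 in limma). Myh4, a myosin heavy chain gene on the higher side with separate groups, did not either (0.35, adjusted p = 0.154 in limma). Cardiac muscle genes were higher in 8 of 8, with a median of 0.07 and mean levels of 5.90 to 5.94 against 5.80 to 5.88. All of them had dim signals, below the median level of all genes, and their largest difference was 0.14. The median difference was -0.01 over all genes but -0.04 over those above the median level. Dimmer genes of any kind thus lay somewhat higher. Whether the cardiac genes differed from other genes as dim was not tested. Fibroblast and fibrocyte genes were lower in 5 and higher in 6 of 11, with mean levels of 9.62 to 9.91 on knockout arrays against 9.67 to 9.75 on wild-type arrays. Among the knockout arrays they read highest in replicate 1 and lowest in replicate 3, like 6 of the members. Some other lists had that order too, such as the endothelial genes (mean deviations -0.03, -0.05 and -0.10). Others did not, such as the skeletal muscle genes (0.02, 0.12 and -0.09). The part of any of these cells in the differences of the members was not tested.

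**Figure D3:**
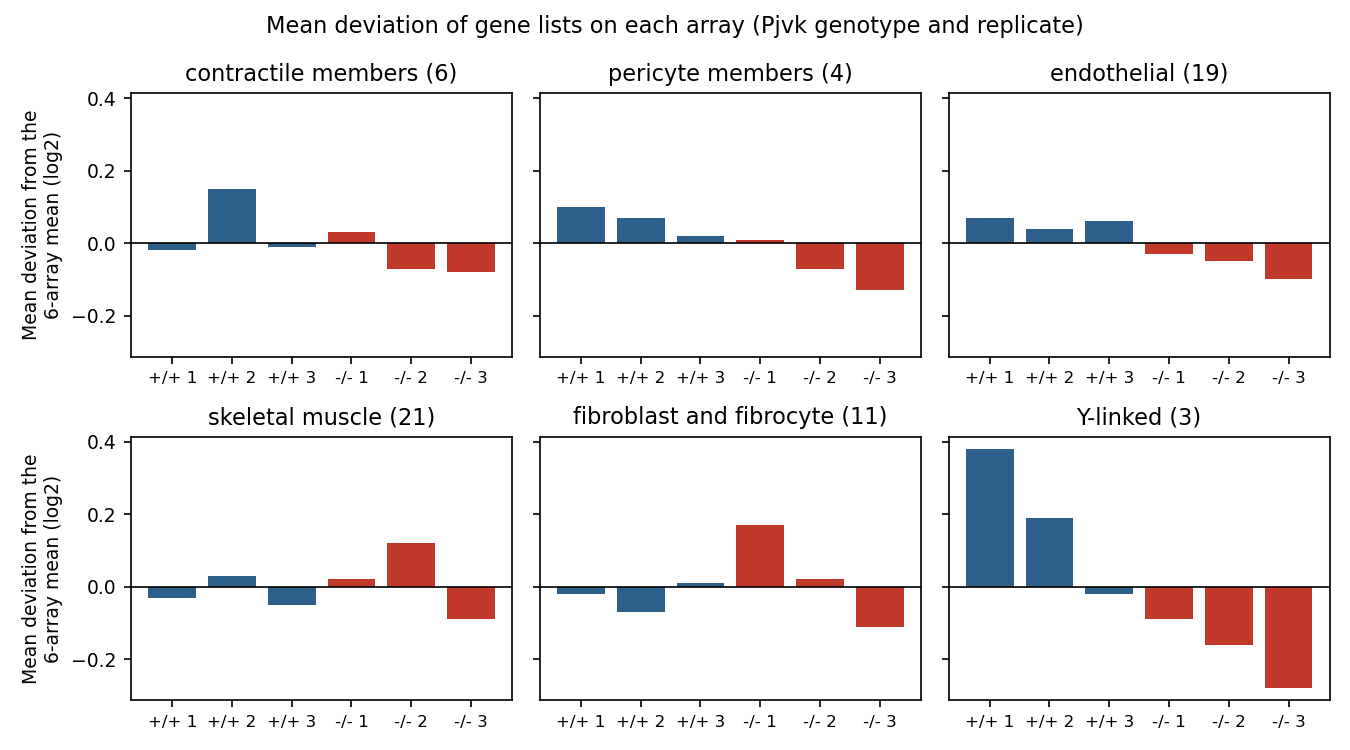
Mean deviation of 6 gene lists from their 6-array mean on the log2 scale, with 1 bar for each array (wild-type in blue, knockout in red; the number of genes in parentheses). The pericyte, endothelial and Y-linked bars are lower in each knockout array than in each wild-type array. The pericyte bars nearly meet, at 0.01 in knockout replicate 1 and 0.02 in wild-type replicate 3. The contractile bars overlap between the genotypes, and the fibroblast bars run from 0.17 in knockout replicate 1 to -0.11 in knockout replicate 3.

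Y-linked transcripts, which report the share of male tissue, were lower in the knockout too, with mean levels of 3 genes at 7.39 to 7.58 on knockout arrays against 7.65 to 8.05 on wild-type arrays. With their level as a covariate, Acta2 stood at -0.41, Myh11 at -0.17, Abcc9 at -0.07 and Mylk at 0.17, while Rgs5 turned to 0.05 and Pdgfrb to 0.01. The genotypes had separate Y-linked levels, so the covariate and the genotype largely cannot be told apart. The median of the members was then -0.03.

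**Figure D4:**
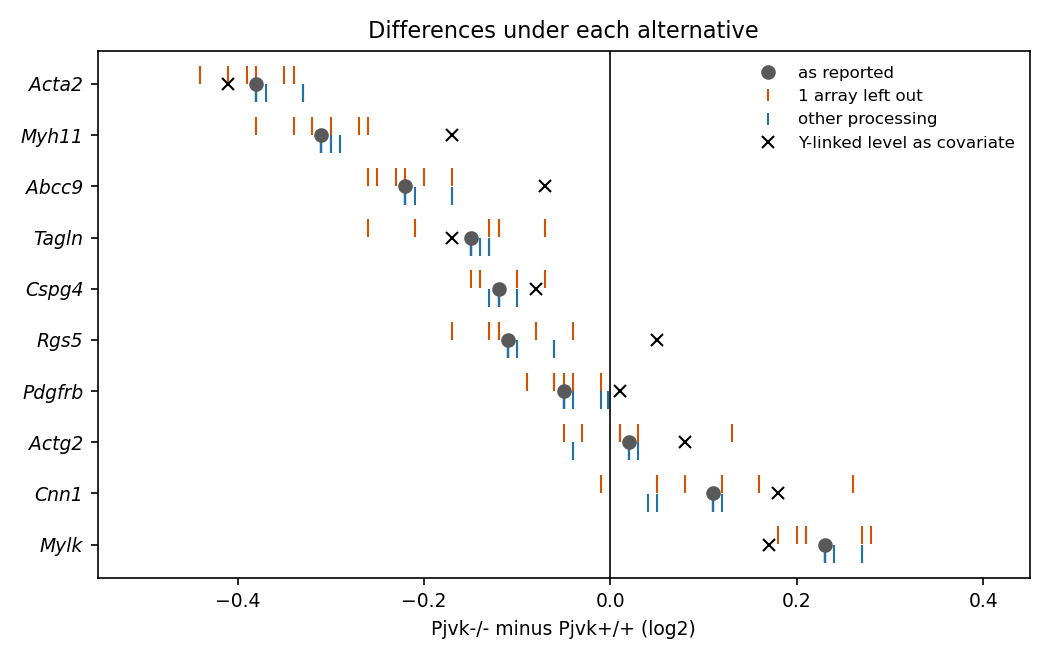
Knockout minus wild-type difference on the log2 scale for each of the 10 genes as reported (grey dots), with 1 array left out (orange ticks), with other processing (blue ticks) and with a Y-linked covariate (crosses). Acta2 stays between -0.44 and -0.33 and Mylk between 0.17 and 0.28, while Actg2, Cnn1, Pdgfrb and Rgs5 each cross 0 under at least 1 setting.

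The checks of the arrays were these. The array medians lay between 6.66 and 6.69, and the correlations between arrays over all probe sets ran from 0.9913 to 0.9940. The Pjvk probe set read 4.33 ± 0.11 in knockout and 4.92 ± 0.16 in wild-type arrays (SD, n = 3 each), lower in 3 of 3 knockout arrays, with a dim signal whose probe positions relative to the inactivated part are not known here. None of the 10 members lies on the chromosome of Pjvk. Hair cell markers (Myo7a, Pou4f3, Slc26a5, Otof, Tmc1, Strc, Espn and Gfi1) had signals between percentiles 36.2 and 68.7 of all genes, with 6 of 8 higher in the knockout and a median of 0.07, and supporting cell markers had signals between percentiles 31.4 and 99.2, with 4 of 8 higher and a median of 0.02. Macrophage, Schwann cell and red cell markers had medians of 0.00, 0.02 and -0.06 over 12, 5 and 2 measured genes, and melanocyte markers -0.07 over 8, with 5 of 8 lower; Dct was the 1 gene among these that passed the adjusted test (-1.86, adjusted p = 0.0115 in limma).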

How the data were processed

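Biotinylated cDNA from 100 ng of total RNA was hybridised to Affymetrix mouse gene ST arrays, 1 per sample, per the labels' protocols. Affymetrix Expression Console, without a version, is named in the submitters' processing notes. The deposited values are log2 signals of 35557 probe sets; how they were summarized and normalized, and the genome build, is not given in the sources used here. Of the probe sets, 21789 had 1 symbol in the platform annotation, 1621 had several and 12147 were not listed; only the first were used, with symbols updated through 21698 matched gene identifiers. The probe set with the highest mean stood for a gene. The genotypes were compared over 19938 genes by lmFit and eBayes of limma 3.58.1 (R 4.3.3) with Benjamini-Hochberg adjustment, after a check on simulated data. In that check log2 changes of 0.5 to 1.5 were simulated, 47 of 50 were recovered at 0.5, and 8 calls were false. Changes as small as those of the members were not simulated, so the check does not show whether they could be called. Precision is limited by the number of arrays; residual degrees of freedom were 4, prior ones 4.59, and the median SE was 0.07.

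All 10 members were named, and up to 4 genes of each other list by smallest unadjusted p. The members and lists were chosen with earlier results of these data known. No filter on low values was applied in the comparison reported. Alternatives covered filters, normalization, probe set choice, the prior, a replicate block, a Y-linked covariate and each array left out.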

Additional observations from a re-analysis of the deposited data

How the results depend on the processing

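Of 156 values of single members under the alternatives, 147 kept their direction and their side of the threshold, 7 turned and 2 passed. Acta2 was the member that passed, so 1 member was called above the median level and 1 with an intensity trend and robust prior; in the other 14 of 16 alternatives limma called none. Actg2 turned with quantile normalization (-0.04), with cyclic loess (-0.04), and without wild-type replicates 1 (-0.03) and 3 (-0.05). Cnn1 turned without wild-type replicate 3 (-0.01), and Pdgfrb (0.01) and Rgs5 (0.05) turned with the Y-linked covariate. Over all settings with 1 array left out, Actg2 ran from -0.05 to 0.13 and Cnn1 from -0.01 to 0.26. The median of the members was -0.03 with that covariate and ran from -0.15 to -0.06 with 1 array left out, and 5 to 8 members had separate groups then, against 24.7% to 33.4% of all genes; with arrays centred on their medians there were 4, against 17.7%, and 4 of the 7 members at or above the median level, against 21.3%. Over all genes the 7 calls became 20 above the 25th percentile, 45 above the median level, 112 with the trend and robust prior, 0 with the Y-linked covariate (1087 genes at an unadjusted p under 0.05), 1 with the replicate block and 2 to 6 with 1 array left out (2 calls without wild-type replicate 1, 2 without wild-type replicate 2 and 3 without knockout replicate 3). The block changed no member's call (Acta2 adjusted p = 0.304). Deviations of same-numbered arrays correlated at 0.08, 0.02 and -0.01, so the replicate numbers were not taken as pairs, and 2 of 3 knockout arrays deviated most like the wild-type array of their own number. The causes were not tested. Cnn1, Actg2 and Cspg4 fell below the median level, and Actg2 below the 25th percentile, so they have no value there. Their dim signals limit what can be said of them.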

Other observations

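The nearest relatives of the members were read as well; this choice was made after the members' values had been seen. Among the actins, Acta1 of skeletal muscle differed by 0.14, Actc1 of heart by 0.03 and the cytoplasmic Actb by -0.05 on the log2 scale (limma adjusted p = 0.529, 0.877 and 0.685), against -0.38 for Acta2. The Acta1 interval, -0.06 to 0.35, and the Actc1 interval, -0.11 to 0.17, leave out a difference of the size seen for Acta2. Among the myosin heavy chains, the non-muscle genes Myh9, Myh10 and Myh14 differed by -0.02, -0.04 and -0.01, against -0.31 for Myh11. None of the 3 intervals, from -0.18 to 0.12 at their widest, reaches the Myh11 value, though the Myh11 interval, -0.48 to -0.14, overlaps that range. Differences between these genes and the members were not tested. Whether probes of one actin also bind transcripts of another was not assessed here.

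The other families gave the following values. Tagln2 and Tagln3 differed by -0.02 and -0.07, Cnn2 and Cnn3 by -0.02 and -0.10, and the kinase genes Mylk2, Mylk3 and Mylk4 by -0.01, -0.05 and 0.06. Abcc8, the sulfonylurea receptor of neurons and beta cells, differed by -0.08 and Pdgfra, the receptor of fibroblasts, by 0.04. Among regulators of G protein signalling, Rgs2 differed by -0.17, Rgs3 by 0.05 and Rgs16 by 0.19, and Cspg5, a neural proteoglycan, differed by 0.14. Among all these relatives, Actb, Cnn3 and Rgs4 had separate groups, each on the lower side, and none passed the adjusted test. Over all genes, 17.8% had separate groups, 11.3% on the lower side.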
